A study of Mus musculus with 7 samples.

Results

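The kinetochore, centromere and spindle checkpoint genes were followed in splenic regulatory T cells (Tregs) as a list of 43 genes, chosen by symbol, out of 51138 genes in the count table. All 43 were found in the table and all 43 passed the filter on low counts. The list holds centromere and inner kinetochore genes, outer kinetochore genes, the corona, the checkpoint, a cohesion protector and the chromosomal passenger complex. The cells came from C57/BL6 mice whose Foxp3-positive cells carry a red fluorescent protein, and Tregs were sorted from the spleen 72 h after the injection. One group, FP, received 20 ug of IL-2/CD25, a fusion protein of the T cell growth factor interleukin-2 with a chain of its own receptor (n = 4 libraries), and the other received 100 uL of PBS (n = 3 libraries). Sex and age are not in the labels used here. Whether each library is from a different mouse is not stated, and a p-value therefore covers only the scatter among these 7 libraries, which may be technical.

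The kinetochore is the protein structure that joins a chromosome to the microtubules of the spindle. Its inner part sits on centromeric nucleosomes that carry the histone variant CENP-A, and its outer part binds microtubules and recruits the checkpoint, which delays anaphase until every chromosome is attached. Many of these genes are transcribed mainly in G2 and mitosis, so a population of resting lymphocytes holds little of their RNA. In bulk samples such as these, fewer cells of a type and less RNA per cell cannot be told apart.

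Total counts ran from 9956509 to 13429878 per library. Levels are given as CPM, the library-size-scaled count after TMM (trimmed mean of M values) correction, and a gene was called when its adjusted p from edgeR's quasi-likelihood test was under 0.05 over the 15954 genes tested. Of 6 Treg genes, Foxp3 (540 and 491 CPM after FP and PBS), Cd4 and Cd3e did not pass, and Il2ra (3.22-fold), Ctla4 (1.96-fold) and Ikzf2 (1.46-fold) were higher after FP. All 8 markers of monocytes and macrophages were lower after FP. Their summed level was 18.0 to 93.0 CPM in the FP libraries and 447 to 1097 CPM in the PBS libraries, and the part of these and the following markers in the results was not tested. The summed level of 4 germinal centre B cell markers was 15.2 to 17.9 CPM after FP and 13.3 to 15.2 CPM after PBS, nearly all of it S1pr2, which did not pass (log2 fold change 0.24), while Rgs13 had at most 3 counts in a library. The sum of 3 plasma cell markers was 0.549 to 0.752 and 0.440 to 0.613 CPM, with Tnfrsf17 at 0 counts in all libraries. The sum of 6 erythroid markers was 7.05 to 9.77 and 8.92 to 17.3 CPM, mostly Alas2, which did not pass, while Epor was lower after FP and Klf1 had at most 4 counts in a library. Summed B cell markers were at 22.4 to 29.6 and 21.8 to 35.1 CPM (Cd79b higher, Cd22 lower, 3 not past the threshold), and CD8 T cell markers at 7.85 to 12.9 and 8.93 to 9.81 CPM. Dendritic cell, NK cell and platelet markers summed to at most 4.08 CPM in an FP library and 9.46 CPM in a PBS library, with Itgax, Eomes and Itga2b lower after FP, and neutrophil markers to 0.641 to 1.24 and 0 to 0.147 CPM. Where a library has 0 counts, up to 3 remain possible by counting error alone, equal to 0.223 to 0.301 CPM depending on the library.

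Of the 43 genes, 39 were higher after FP, 0 were lower and 4 did not pass the test. DESeq2 and limma-voom also called 0 lower, and in edgeR with TMM and all 7 libraries 0 had a log2 fold change below 0. Cenpo fell below 0 under some other settings, given below. Of all genes tested, 39.5% were called in either direction, 21% were called higher and 18.5% lower. Scaling decided that split: 53.2% of all calls were higher with TMM, 33.2% by upper quartiles and 28.6% by total counts, where 39, 38 and 36 of the 43 genes were higher. The median log2 fold change of the 43 genes was 2.78, against -0.05 over all genes tested. Of the 43, 33 rose at least 2-fold, as 7.58% of all genes did, and 26 rose at least 4-fold, as 2.66% did. The FP and PBS libraries did not overlap for 40 of the 43, with every FP library higher, which held for 23.2% of all genes tested (23.5% had every FP library lower). The rise was uneven within the list, from a log2 fold change of 0.04 for Cenpo to 5.89 for Ska1. The reference genes of dividing cells Mki67 and Top2a rose by 4.61 (SE 0.26) and 4.79 (SE 0.28) on the log2 scale, and their groups did not overlap either. In the same reference list of 6 genes, Ccnb1 and Cdk1 rose by 4.66 and 5.18, and Mcm2 and Pcna less, by 1.89 and 1.97.

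**Figure D1:**
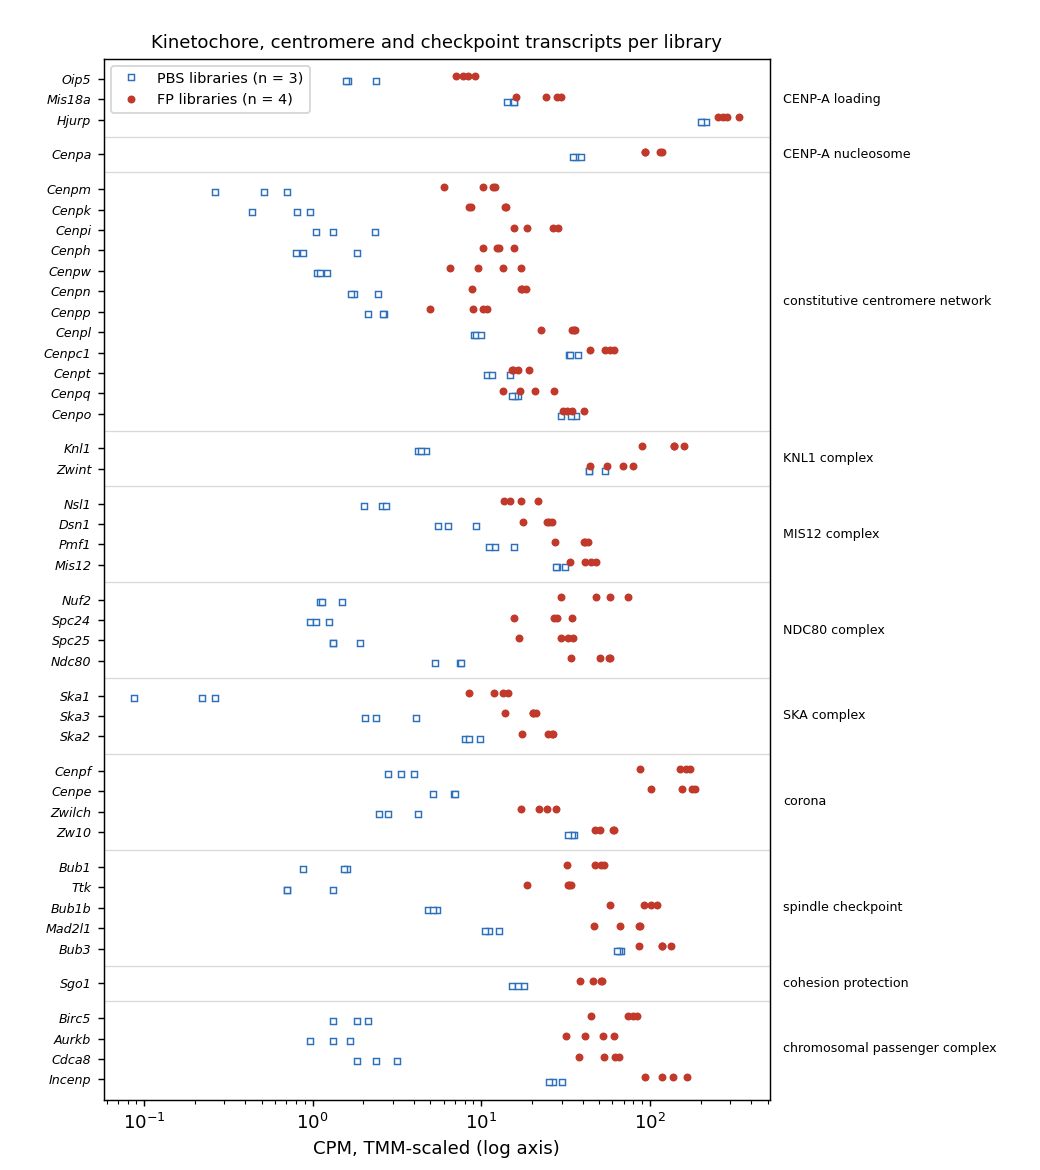
CPM after TMM scaling (log axis) of each of the 43 genes in each library, grouped by role; filled circles are the 4 FP libraries and open squares the 3 PBS libraries. The groups are apart for 40 genes and overlap for Cenpo, Cenpq and Zwint, and the PBS values spread over a wider range of levels than the FP values.

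Because most of these genes rose, the promoter windows that RefSeq gives for them were searched on both strands for fixed letters. The windows (GRCm38.p6) ran from 250 bases before to 50 after the start, and 37 of the 43 genes were matched. Searched were TTTGAA and TTCGAA, which are forms of the cell cycle homology region (CHR) known from genes of G2 and mitosis, CCAAT, the box bound by the factor NF-Y, and the E2F-type letters TTTGGCGC and TTTCCCGC. Neighbouring matches can share letters, as TTTGAA and a reversed CCAAT do in Cdca8. Either CHR form was found in 21 of 37 genes (56.8%), against 21.7% of the 27025 genes in the promoter table and 17.0% of the 10190 genes of that table that were tested here. CCAAT was found in 25 of 37 (67.6%), against 41.1% and 42.5%. Both a CHR form and CCAAT were found in 16 of 37 (43.2%), against 8.61% and 6.94%. A CHR form within 50 bases on either side of the start was found in 16 of 37, against 6.12% and 4.60%. Either E2F form was found in 3 of 37 (8.11%), against 1.80% and 3.42%. The genes without a matched window, Aurkb, Incenp, Nsl1, Ska1, Spc24 and Zwilch, all rose at least 4-fold. By size of change, a CHR form was present in 13 of the 20 matched genes, out of 26, that were at least 4-fold higher. It was present in 4 of 7 between 2-fold and 4-fold and in 4 of 10 under 2-fold. These shares describe letters in these windows, and starts differ between annotations.

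Windows from 100 bases before to 30 after the RefSeq start are shown for 4 genes that rose at least 16-fold, for Cenpa, which rose less, and for Zwint and Cenpt, which did not pass. They are examples picked after the matches were known. Capitals mark matches of the letters searched, on either strand. The windows lie at chr2:127831830-127831959 (Bub1, minus strand), chr9:83834589-83834718 (Ttk, plus), chr4:124936888-124937017 (Cdca8, minus), chr2:69206184-69206313 (Spc25, minus), chr5:30666786-30666915 (Cenpa, plus), chr10:72654746-72654875 (Zwint, plus) and chr8:105851979-105852108 (Cenpt, minus).
Bub1: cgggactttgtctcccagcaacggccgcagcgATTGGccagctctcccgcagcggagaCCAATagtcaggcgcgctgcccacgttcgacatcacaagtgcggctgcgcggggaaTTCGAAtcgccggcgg
Ttk: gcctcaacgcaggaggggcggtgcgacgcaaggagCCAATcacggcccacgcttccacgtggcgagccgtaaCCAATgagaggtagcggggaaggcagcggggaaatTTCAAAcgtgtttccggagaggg
Cdca8: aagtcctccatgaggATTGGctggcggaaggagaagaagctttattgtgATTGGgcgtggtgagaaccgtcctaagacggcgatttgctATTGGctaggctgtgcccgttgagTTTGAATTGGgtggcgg
Spc25: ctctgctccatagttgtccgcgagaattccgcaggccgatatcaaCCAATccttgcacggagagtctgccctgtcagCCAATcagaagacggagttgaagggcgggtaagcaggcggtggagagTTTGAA
Cenpa: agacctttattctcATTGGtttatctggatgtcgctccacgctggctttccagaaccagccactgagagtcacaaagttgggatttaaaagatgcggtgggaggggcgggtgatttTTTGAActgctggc
Zwint: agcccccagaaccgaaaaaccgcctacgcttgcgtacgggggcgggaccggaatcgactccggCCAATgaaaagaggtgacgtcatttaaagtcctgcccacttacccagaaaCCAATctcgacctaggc
Cenpt: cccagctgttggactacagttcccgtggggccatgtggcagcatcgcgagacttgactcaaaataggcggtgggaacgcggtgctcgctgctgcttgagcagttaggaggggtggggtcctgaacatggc
In the first 5 windows a CHR form lies just after the start, with at least 1 CCAAT box upstream of it. The Zwint window holds CCAAT without a CHR form, and the Cenpt window holds no match of the letters searched. Other genes differ from these examples: Nuf2 and Birc5, which rose at least 16-fold, have no match in the full window and Cenpe has no CHR form, while Hjurp and Bub3, which changed less than 2-fold, have a CHR form near the start and CCAAT.

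The genes are described from the centromere outward. Cenpa (ENSMUSG00000029177.9, GRCm38 chromosome 5, 30666777 to 30674830, plus strand) encodes the histone H3 variant that marks the centromere. It measured 93.1, 118, 116 and 93.1 CPM in FP replicates 1 to 4 and 36.6, 39.1 and 35.1 CPM in PBS replicates 1 to 3. The rise was 2.84-fold (log2 fold change 1.50, SE 0.12, adjusted p = 1.07e-05 by edgeR), and the groups were well apart.

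The loading factors, which bring CENP-A to the centromere after mitosis, also rose in 3 of 3. Hjurp, the CENP-A chaperone, measured 270, 288, 340 and 253 CPM after FP and 203, 214 and 201 CPM after PBS. Its change was the lowest of the loaders (0.48, SE 0.11, adjusted p = 0.00601 by edgeR) although the groups did not overlap. The call was lost when scaled by upper quartiles, at 0.28 (adjusted p = 0.0554), and when scaled by total counts, at 0.21 (adjusted p = 0.203). Oip5, a subunit of the MIS18 complex that licenses the centromere for loading, measured 8.38, 7.81, 9.16 and 7.13 CPM after FP and 2.39, 1.61 and 1.58 CPM after PBS, and rose by 2.13 (SE 0.23, adjusted p = 9.04e-05 by edgeR). Its partner Mis18a measured 28.2, 29.7, 24.3 and 16.2 CPM after FP and 15.7, 15.7 and 14.3 CPM after PBS. FP replicate 4 lay just above the PBS libraries for Mis18a. The call (0.68, SE 0.20, adjusted p = 0.0190) was lost without FP replicate 2 (adjusted p = 0.0509), PBS replicate 2 (0.0568) or PBS replicate 3 (0.0772) and with library size alone (0.0629).

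The constitutive centromere-associated network, the set of inner kinetochore proteins that stays on the centromere through the cell cycle, had 9 of 12 genes higher, while 3 missed the threshold. Its median log2 fold change was 2.40. Its biochemical subcomplexes, sorted here after the values were seen, differed in size of change. All 4 genes of CENP-HIKM, the branch that binds CENP-C, rose more than 10-fold. Cenpm (ENSMUSG00000068101.10, chromosome 15, 82233779 to 82244748, minus strand) rose most in the network and measured 10.2, 11.8, 12.1 and 5.99 CPM after FP and 0.707, 0.513 and 0.263 CPM after PBS. Its log2 fold change was 4.31 (SE 0.39, adjusted p = 2.48e-05 by edgeR). It rests on 18 counts in the PBS libraries. Per unit of TMM-scaled library size, its FP counts were 19.7 times as many (95% interval from counting error, 12.3 to 33.6). Cenpk, Cenpi and Cenph rose by 3.90, 3.79 and 3.40 on the log2 scale. All FP libraries lay above all PBS libraries for each of these genes.

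In the CENP-LN pair, which reads the CENP-A nucleosome, Cenpn rose by 2.97 (SE 0.30) and Cenpl by 1.76 (SE 0.18). Cenpc1, the scaffold that bridges the nucleosome to the outer kinetochore, rose by 0.65 (SE 0.13), from 33.0, 37.3 and 33.6 CPM to 61.7, 58.0, 54.0 and 44.3 CPM. In the histone-fold branch CENP-TWSX, 3 of 4 genes rose. Cenpw measured 13.4, 17.1, 9.61 and 6.56 CPM after FP and 1.06, 1.10 and 1.23 CPM after PBS, and rose by 3.35 (SE 0.37), and Cenps, of the other list, rose by 3.26 (SE 0.36). Cenpx, also of that list, rose by 0.87 (SE 0.22), with groups that did not overlap. Cenpt, whose protein binds CENP-W directly, measured 15.2, 16.6, 19.2 and 15.4 CPM after FP and 10.9, 14.7 and 11.6 CPM after PBS. The groups did not overlap for Cenpt, yet it missed the threshold (0.42, SE 0.16, adjusted p = 0.0578 by edgeR). Cenpt passed in DESeq2 (0.46, adjusted p = 0.0415), with DESeq2 size factors (0.0478), without FP replicate 4 (0.0455) and without PBS replicate 2 (0.0400).

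CENP-OPQUR had the lowest median of these subcomplexes, 0.30 over its 5 genes, of which Cenpp and Cenpu passed. Cenpp measured 10.9, 10.3, 8.97 and 4.99 CPM after FP and 2.12, 2.64 and 2.63 CPM after PBS, and rose by 1.82 (SE 0.29). Cenpo (ENSMUSG00000020652.17, chromosome 12, 4196004 to 4234294, minus strand) measured 34.5, 32.2, 40.5 and 30.4 CPM after FP and 29.6, 36.6 and 33.9 CPM after PBS. These groups overlapped (0.04, SE 0.13, adjusted p = 0.816 by edgeR), and the sign turned when scaled by upper quartiles (-0.16) or total counts (-0.23). Cenpq measured 27.2, 20.96, 16.9 and 13.4 CPM after FP and 16.5, 15.9 and 15.2 CPM after PBS. FP replicate 4 lay below every PBS library for Cenpq and FP replicates 1 to 3 above (0.30, SE 0.21, adjusted p = 0.294). Cenpu rose by 0.80, and Itgb3bp, the gene of CENP-R, had 0.26 (SE 0.24, adjusted p = 0.412). Exons of Cenpo, Cenpp, Cenpq, Cenpt and Cenpk overlap genes on the other strand, as do those of Cenpu and Itgb3bp, of the other list. Every gene of CENP-OPQUR is therefore affected. Outside the network the same holds for exons of Oip5, Mis12, Ska2, Ska3, Zwilch and Cdca8. How the counting treated strand is unknown, which makes the values of all these genes less certain. Cenpc1, Cenpw, Zwint, Ndc80, Ska2 and Mad2l1 share a stretch of at least 200 bases, at least 95% identical, with transcripts of genes elsewhere, so reads there could be split between loci.

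**Figure D2:**
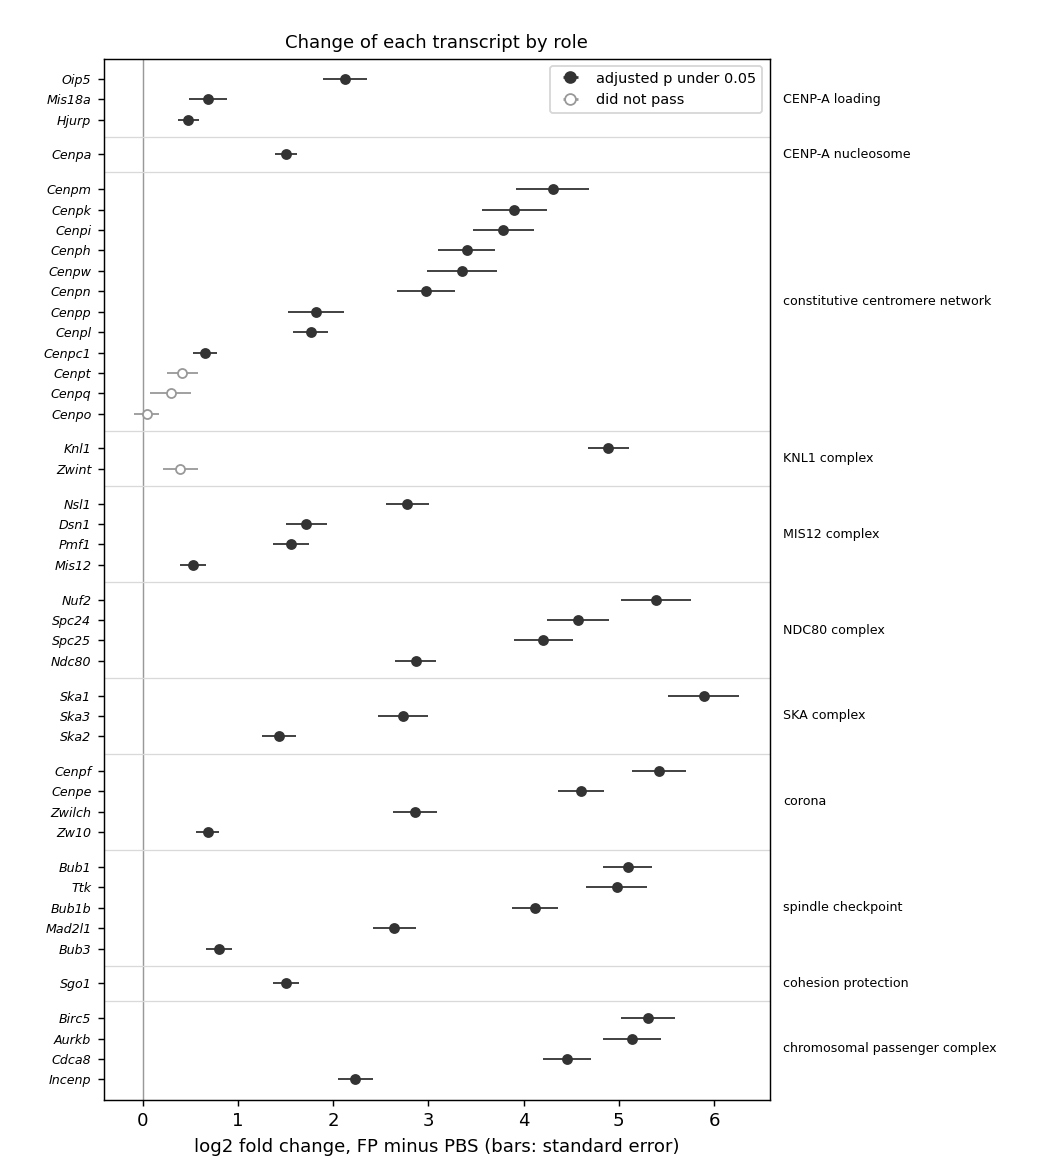
Log2 fold change (FP minus PBS) with its standard error for each of the 43 genes, grouped by role and ordered by size within a role; filled points passed the threshold and open points did not. Most roles hold both large and small changes, for example Ska1 at 5.89 and Ska2 at 1.43, and the open points are Cenpo, Cenpq, Cenpt and Zwint.

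At the outer kinetochore, 12 of 13 genes rose and 1 did not pass. The NDC80 complex, a rod that grips the microtubule, had the highest median of the outer complexes (4.39) and all 4 genes rose. Ndc80 (ENSMUSG00000024056.9, chromosome 17, 71496100 to 71526857, minus strand) measured 57.0, 57.7, 50.8 and 34.0 CPM after FP and 7.51, 7.55 and 5.34 CPM after PBS. Its change, the smallest of the complex, was 2.87 (SE 0.22, adjusted p = 1.04e-05 by edgeR). Nuf2, its coiled-coil partner, measured 74.2, 58.2, 47.7 and 29.9 CPM after FP and 1.50, 1.10 and 1.14 CPM after PBS, and rose by 5.39 (SE 0.37, adjusted p = 8.25e-06 by edgeR). Even FP replicate 4 held far more Nuf2 than any PBS library. Spc24 and Spc25, the pair that anchors the rod to the kinetochore, rose by 4.57 (SE 0.32) and 4.21 (SE 0.31).

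The MIS12 complex joins the inner kinetochore to the NDC80 rod, and its median was lower, at 1.64, with 4 of 4 genes higher. Nsl1 measured 14.7, 17.1, 21.8 and 13.7 CPM after FP and 2.03, 2.57 and 2.72 CPM after PBS (2.78, SE 0.23, adjusted p = 1.38e-05 by edgeR). Dsn1 and Pmf1 rose by 1.72 and 1.56. Mis12 itself measured 45.0, 47.9, 41.2 and 33.7 CPM after FP and 31.3, 28.2 and 27.8 CPM after PBS. The lowest FP library lay just above the highest PBS library, and the change of 0.53 (SE 0.13, adjusted p = 0.0102 by edgeR) fell short of the threshold if PBS replicate 3 was left out (0.50, adjusted p = 0.0510) or if scaling used total counts (0.25, adjusted p = 0.0842).

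The same contrast of a large and a small change was seen for the gene Knl1 and its partner Zwint. Knl1, the scaffold on which the BUB proteins dock, measured 159, 140, 140 and 90.1 CPM after FP and 4.24, 4.69 and 4.38 CPM after PBS, and rose by 4.89 (SE 0.22, adjusted p = 1.15e-06 by edgeR). Zwint, which links KNL1 to the corona, measured 79.4, 69.6, 55.5 and 44.0 CPM after FP and 54.0, 43.8 and 43.4 CPM after PBS. FP replicate 4 lay within the PBS range for Zwint (0.40, SE 0.19, adjusted p = 0.116 by edgeR), and Zwint passed without that library (0.53, adjusted p = 0.0101).

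In the SKA complex, which holds on to shortening microtubules, Ska1 showed the largest change of the list. It measured 11.9, 13.5, 14.5 and 8.42 CPM after FP and 0.265, 0.220 and 0.0876 CPM after PBS (5.89, SE 0.37, adjusted p = 3.08e-06 by edgeR). The PBS libraries together held 7 Ska1 counts and the FP libraries 539. Per unit of TMM-scaled library size this was 61.6 times as many (95% interval from counting error, 29.7 to 154). Ska3 rose by 2.74 (SE 0.26). Ska2, which measured 26.2, 24.9, 26.6 and 17.5 CPM after FP and 9.89, 8.06 and 8.50 CPM after PBS, rose by 1.43 (SE 0.18, adjusted p = 0.000211).

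Inner and outer kinetochore were compared as lists of 13 genes each, Cenpa with the centromere network against the KNL1, MIS12, NDC80 and SKA complexes. The inner list had a median log2 fold change of 1.82, with 10 genes higher and 3 that did not pass, and the outer list a median of 2.78, with 12 higher and 1 that did not pass. The inner genes ran from 0.04 to 4.31 and the outer genes from 0.40 to 5.89, so the lists overlapped over most of their range. In FP replicates 1 to 4 the median difference from the PBS mean was 2.08, 2.00, 1.90 and 1.33 for the inner list. For the outer list it was 2.84, 2.83, 2.89 and 2.31, higher in 4 of 4 libraries. With Cenpa left out, the inner values were 2.62, 2.52, 2.41 and 1.67, closer to those of the outer list. These libraries share the same genes and the same PBS mean, so they do not repeat the comparison. The difference of the medians, outer minus inner, was 0.96, but it was 0.38 when Cenpa was left out of the inner list, whose middle values are then Cenpp (1.82) and Cenpn (2.97). Genes are not replicates, and the difference between the lists was not tested.

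Corona genes, which catch microtubules and carry the checkpoint proteins, rose in 4 of 4. Cenpf measured 164, 173, 151 and 87.4 CPM after FP and 3.98, 2.79 and 3.33 CPM after PBS (5.42, SE 0.29, adjusted p = 2.49e-06 by edgeR). Cenpe, the gene of a kinesin motor that moves chromosomes to the spindle equator, rose by 4.60 (SE 0.24). The RZZ complex of the corona recruits dynein and the checkpoint protein MAD1. Its Zwilch rose by 2.86 (SE 0.24), and its Kntc1, of the other list, by 3.88 (SE 0.22). Zw10, which also acts in membrane traffic between the ER and the Golgi, measured 50.5, 60.6, 61.6 and 47.6 CPM after FP and 35.5, 34.4 and 32.9 CPM after PBS. Its rise was the smallest of the corona (0.68, SE 0.12, adjusted p = 0.00135 by edgeR), with groups that did not overlap.

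All 5 spindle checkpoint genes rose. Bub1, a kinase that places shugoshin and the checkpoint on the kinetochore, measured 51.7, 53.2, 47.6 and 32.5 CPM after FP and 1.59, 1.54 and 0.876 CPM after PBS. Its rise was 5.09 on the log2 scale (SE 0.26, adjusted p = 1.39e-06 by edgeR). Ttk, the MPS1 kinase that starts the checkpoint signal, rose by 4.98 (SE 0.32), and Bub1b and Mad2l1, whose proteins BUBR1 and MAD2 are part of the inhibitor of the anaphase-promoting complex, rose by 4.12 (SE 0.24) and 2.64 (SE 0.23). Bub3, which binds BUB1 and BUBR1, was already at 67.0, 65.7 and 63.8 CPM after PBS and measured 118, 134, 118 and 85.9 CPM after FP. Its change was the smallest of the checkpoint group (0.80, SE 0.14, adjusted p = 0.00128 by edgeR). Sgo1, the shugoshin that protects cohesion at the centromere, measured 51.5, 46.2, 52.3 and 38.8 CPM after FP and 17.9, 15.3 and 16.6 CPM after PBS, and rose by 1.51 (SE 0.14, adjusted p = 2.61e-05).

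The chromosomal passenger complex corrects wrong attachments and later directs cytokinesis, and its 4 genes had a median log2 fold change of 4.80. Birc5, the gene of survivin, measured 74.5, 79.9, 84.0 and 44.9 CPM after FP and 1.33, 2.13 and 1.84 CPM after PBS (5.30, SE 0.28, adjusted p = 2.07e-06 by edgeR). Aurkb (ENSMUSG00000020897.12, chromosome 11, 69045647 to 69051664, plus strand), the kinase of the complex, measured 41.2, 53.0, 61.5 and 31.7 CPM after FP and 1.68, 1.32 and 0.963 CPM after PBS (5.14, SE 0.30, adjusted p = 2.49e-06 by edgeR). Cdca8, the gene of borealin, rose by 4.46 (SE 0.25). Incenp, the scaffold, measured 119, 136, 166 and 94.3 CPM after FP and 26.6, 30.4 and 25.1 CPM after PBS, and rose by 2.23 (SE 0.18). Per kilobase of exon its mean PBS level was the highest of the complex, at 6.32 CPM. The groups were apart for all 4 genes.

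Levels of different genes were compared only as mean CPM per kilobase of exon. Exon length here joins all transcripts of a gene. For some genes the longest coding transcript is far shorter, as for Cenpa (1466 against 5860 bases) and Bub3 (3414 against 7006). The order of genes therefore depends on the length chosen. In the PBS libraries Hjurp was highest, at 24.7 CPM per kb, followed by Zwint (10.6), Mis12 (9.68), Bub3 (9.35) and Zw10 (8.96), and Ska1 was lowest, at 0.0715. The 10 genes with a change under 2-fold, 4 of which did not pass, had PBS levels of 3.40 to 24.7 CPM per kb, whereas the 14 that rose at least 16-fold had 0.0715 to 1.21. After FP the levels of these sets overlapped, at 4.55 to 34.5 and 4.53 to 21.2 CPM per kb. The highest PBS level was 346 times the lowest, and the highest FP level 16.04 times the lowest. Under 1 CPM per kb there were 21 of the 43 genes after PBS and 0 after FP. Across the 43 genes the log2 fold change had a Spearman correlation of -0.88 with the PBS level and of -0.02 with the FP level. This is a description across genes of the same 7 libraries, and the PBS level enters the fold change itself.

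**Figure D3:**
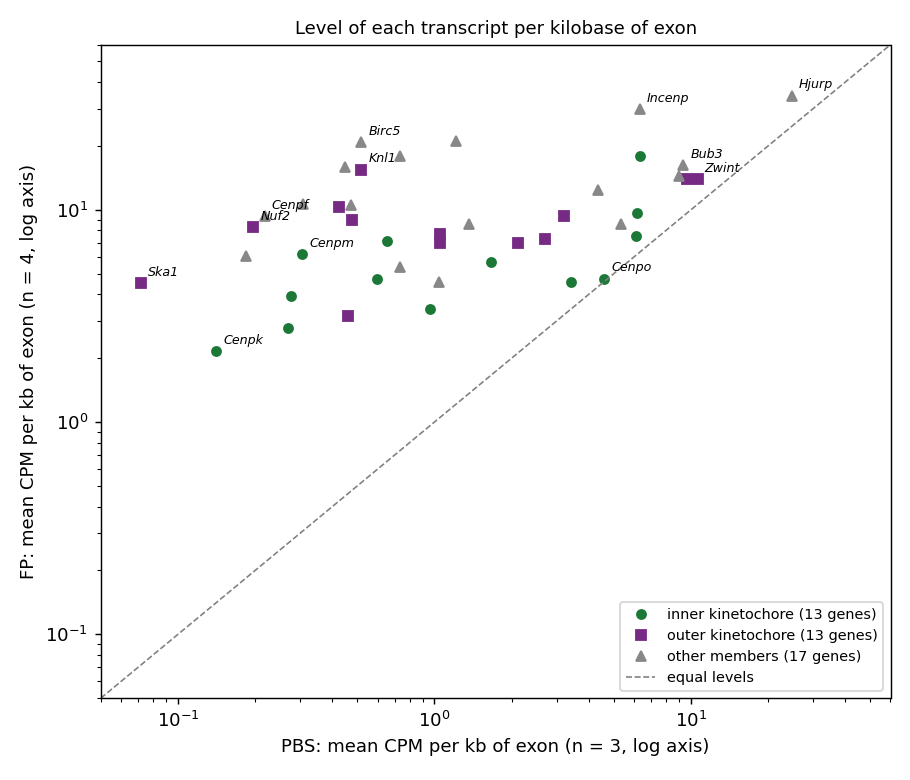
Mean CPM per kilobase of exon after PBS (x axis, n = 3) against that after FP (y axis, n = 4), both on log axes, for the 13 inner and 13 outer kinetochore genes and the 17 other members; the dashed line marks equal levels. Points span 0.0715 to 24.7 on the x axis and 2.15 to 34.5 on the y axis, and inner and outer genes are intermixed.

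Levels were more even after FP, over the 43 genes together as well as within complexes. Within each library, the SD over the 43 genes of log2 CPM per kb was 0.87 to 0.95 in the FP libraries and 1.91 to 2.02 in the PBS libraries. The NDC80 complex had an SD of 0.15 to 0.28 after FP and of 0.84 to 1.08 after PBS. Its 4 genes had 7.68 (Ndc80), 8.28 (Nuf2), 10.3 (Spc24) and 8.96 (Spc25) CPM per kb after FP, and 1.05, 0.197, 0.424 and 0.475 after PBS. The SKA complex went from 2.11 to 2.56 after PBS to 0.32 to 0.46 after FP, with Ska1 at or under 3 counts in each PBS library. Knl1 and Zwint, a set of 2 genes outside the plan for sets of 3 or more, had 15.5 and 14.0 CPM per kb after FP and 0.519 and 10.6 after PBS. Their SD was 0.038 to 0.27 after FP and 2.92 to 3.23 after PBS. The near-equal FP levels rest on exon lengths of 8542 and 4434 bases, whereas the longest coding transcripts have 7800 and 2676. The MIS12 complex kept an SD of 0.74 to 1.03 after FP, with 14.0 CPM per kb of Mis12 and 3.18 of Nsl1. The CENP-A loading genes had the highest SD after FP of the 9 sets, 1.39 to 1.55, with 34.5 CPM per kb of Hjurp and 4.57 of Oip5. In all 9 sets compared, every FP library had a lower SD than every PBS library. These are descriptions of the levels, with no test, and low PBS counts add counting error to the PBS spread. The longest coding transcript was tried as length only for the 43 genes together, not within single sets.

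**Figure D4:**
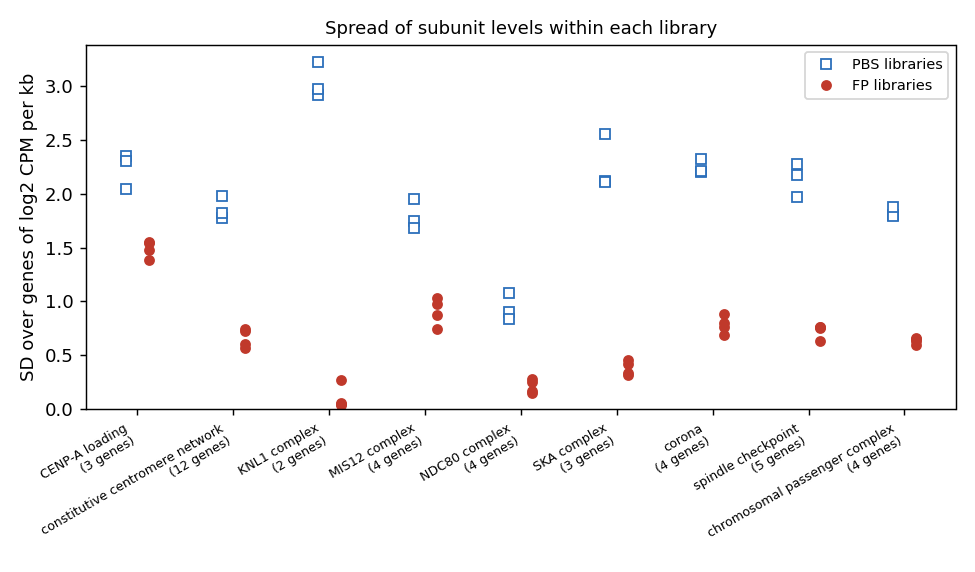
SD over genes of log2 CPM per kilobase of exon within each library (y axis) for 9 complexes or roles of 2 or more genes (x axis); filled circles are FP libraries and open squares PBS libraries. FP values lie below PBS values in each of the 9 sets, and reach from 0.038 in the KNL1 complex to 1.55 for the CENP-A loading genes.

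Among the FP libraries, replicate 4 was the lowest for 42 of the 43 genes, and for 32 of them with library size alone. The summed level of the 43 genes was 2432, 2533, 2491 and 1662 CPM in FP replicates 1 to 4 and 692, 698 and 656 CPM in PBS replicates 1 to 3. Mki67 was likewise lowest in replicate 4 among the FP libraries, at 1363, 1553, 1409 and 817 CPM after FP and 62.3, 54.5 and 41.1 CPM after PBS. Of the 6 Treg genes, FP replicate 4 lay below the other FP libraries for Il2ra (1530 CPM), Ctla4 (79.7 CPM) and Cd4 (393 CPM), above them for Ikzf2 (1809 CPM) and within their range for Foxp3 (508 CPM) and Cd3e. Without FP replicate 4, 41 of the 43 genes were called higher.

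The list of 20 other kinetochore and checkpoint genes gave 16 higher, 0 lower and 4 that missed the threshold, and its median log2 fold change was 2.80. The largest changes were those of Kif2c, a kinesin that takes microtubules apart at the centromere (5.62, SE 0.39), Spag5, the spindle protein astrin (5.39, SE 0.26), and Sgo2a, a second shugoshin (4.19, SE 0.29). Genes that did not pass were Mad2l1bp (0.43, adjusted p = 0.0577), whose protein helps to silence the checkpoint, Mad1l1 (0.31, adjusted p = 0.185), the MAD1 anchor of MAD2, Itgb3bp and Ndel1 (0.16, adjusted p = 0.290), a dynein regulator. Cdc20, the activator that the checkpoint holds back, rose by 3.36 (SE 0.22), and Plk1, a mitotic kinase, by 3.90 (SE 0.36). Cenpb, which binds centromeric repeat DNA, rose by 0.93 (SE 0.10). In this list, exons of Cenpu, Itgb3bp, Sgo2a, Mad1l1, Cdc20, Knstrn, Plk1 and Nde1 overlap genes on the other strand. Their values are less certain for the reason given above. For 16 of the 20 genes every FP library lay above every PBS library.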

How the data were processed

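RNA was measured in 7 libraries of sorted splenic Tregs. Per-gene raw counts were deposited by the authors. Per the submitters' processing notes and the series' design text, reads were mapped to GRCm38 with STAR (2.5.0b in the notes) and counted per GENCODE M13 gene with featureCounts 1.5.0. How strand and multiply mapping reads were handled is not given in the sources used here. In the series design text DESeq2 stands for the calls of the authors, and it served here as an alternative. Columns were matched to samples by name. The members and lists were chosen with earlier results of these data known. Members were matched by Ensembl ID (43 of 43).

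Counts were analysed with edgeR 4.0.16 in R 4.3.3: filterByExpr, TMM scaling, robust quasi-likelihood test of 4 FP against 3 PBS libraries, no covariates, Benjamini-Hochberg adjustment over 15954 genes and a threshold of 0.05. Standard errors came from the F statistic. Log2 CPM for library values used a prior count of 2. Positions, exon lengths and overlaps came from GENCODE M21, which is newer than M13; exons of 11 members overlap a gene on the other strand. Named in full were the extremes of each role, Cenpa, Aurkb, Birc5, Ndc80, genes that did not pass and genes whose call changed. Alternatives were other scalings, DESeq2 1.42.0, limma-voom (limma 3.58.1), other filters, a replicate block and leaving out each library. On simulated counts of 15954 genes, the FP against PBS test found 16 of the 53 genes set to 1.5-fold, 40 of the 48 at 2-fold, 40 of the 42 at 4-fold and 54 of the 57 at 8-fold. Only these genes were changed in the simulation, and all genes had the same median spread. In the data 39.5% of genes were called, so these shares do not give the rate of missed changes there. Depth was 9956509 to 13429878 counts per library, and intervals cover counting error only. Marker and comparison lists are given mainly by counts and summed levels, and many of their genes are not reported here.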

Additional observations from a re-analysis of the deposited data

Results flagged for a closer look

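For 5 genes a FP library lay far from the other FP libraries by Dixon's test of the gap against the range at its 95% critical value for 4 samples, and in each case the library was FP replicate 4. Cenpl measured 22.8 CPM there against 34.6 to 35.9 CPM in the other FP libraries, Cenpn 8.84 against 17.2 to 18.5 CPM, Pmf1 27.2 against 40.8 to 43.2 CPM, Ska3 13.8 against 20.4 to 21.2 CPM and Ttk 18.8 against 32.6 to 34.3 CPM. Chance flags about 1 in 20 groups, and these genes are not independent of each other. All of these values were above the PBS libraries. The flags were taken on TMM-scaled CPM alone. FP replicate 4 had the largest TMM factor of the FP libraries (1.046, against 0.839, 0.849 and 0.971), which lowers its CPM most. The flags therefore depend on the scaling.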

How the results depend on the processing

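Of 645 values of single genes under the other settings, 625 kept their direction and their side of the threshold, and all of the changes fell on 7 genes (Hjurp, Mis18a, Cenpo, Cenpq, Cenpt, Zwint and Mis12). Cenpo turned to -0.16 with upper-quartile factors, -0.23 with library size alone, -0.044 without FP replicate 3 and -0.0099 without PBS replicate 1, and ran from -0.044 to 0.12 leaving out 1 library. The median of all genes moved from -0.05 to -0.25 by upper quartiles and -0.31 by total counts. The number of members called higher was 36 to 42, and 0 were called lower, under every setting run. Leaving out 1 library at a time gave 37 to 41 members higher, 40 to 42 with groups apart, 16 to 18 other kinetochore genes higher, inner medians of 1.73 to 2.02, outer medians of 2.68 to 2.87, differences of 0.85 to 1.07, and 4088 (without PBS replicate 3) to 7277 genes called in all, against 6308. The split of all calls was 53.2% higher with TMM, 33.2% by upper quartiles and 28.6% by total counts. The outer minus inner difference was 0.38 without Cenpa and 0.99 to 1.05 under the other 3 definitions of the lists. The excess of the PBS over the FP spread of levels (1.04) was 1.01 to 1.06 leaving out 1 library and 1.04 with the longest coding transcript as length, both added after seeing the data. With the replicate number as a block, where FP replicate 4 has a block of its own, 42 members were higher, with Cenpq (0.43, adjusted p = 0.0280), Cenpt (0.46, adjusted p = 0.0277) and Zwint (0.53, adjusted p = 0.000450) added, and 7870 genes were called; same-numbered libraries correlated by 0.20, 0.08 and 0.10 in their deviations, and FP replicate 2 correlated best with PBS replicate 1 (0.21), so the numbers were not taken as pairs. Depth limits Ska1, Cenpm and Cenpk most, with 7, 18 and 27 counts in the PBS libraries.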
